A study of Mus musculus with 5 samples.

Results

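Astrocyte marker and glutamate uptake genes were read library by library in mouse neural stem/progenitor cells (NSPCs). The 10 genes are Gfap, Slc1a3, Slc1a2, Glul, Aqp4, Gja1, Sparcl1, S100b, Aldoc and Aldh1l1. They were found by their symbols in a table of 12588 gene sums, where a gene sum adds up the normalized counts of all listed transcripts of a symbol. All 10 were listed, with 19 transcripts between them, and all 10 had a mean of at least 50 normalized counts. The genes were chosen on their measured levels in these same libraries, so the levels are given as a description and serve as support for nothing.

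RNA-Seq covered 5 untreated cultures whose proliferation medium held EGF at 20 ng/ml and FGF-2 at 20 ng/ml. Of the libraries, 2 were labelled WT (p75NTR+/+, replicates 1 and 4, littermates of the mutants) and 3 were labelled p75NTR-/- (replicates 1, 2 and 4). All are from C57BL/6J mice, and the mutants are constitutive knockouts of the p75 neurotrophin receptor. The labels give the source as E12.5 embryos, whereas the paper describes adult cells, and the table does not decide between them.

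Totals ranged from 11688211 to 14452396 counts per library. The mRNA of Ngfr, which encodes p75NTR, was at 0.98 and 2.08 normalized counts in the WT-labelled replicates 1 and 4, and at 9.89, 141 and 251 in replicates 1, 2 and 4 labelled p75NTR-/-. The targeted gene thus goes against the labels, and every group below is named by its label only. Which exons the mutation removes was not examined here, so remaining Ngfr mRNA does not by itself show intact receptor. Over the log2 levels of 10786 genes of mean 50 or more (genes, not replicates), the Pearson correlation of both libraries numbered 4 was 0.992, and that of replicates 1 and 2 labelled p75NTR-/- was 0.981. It lay between 0.929 and 0.947 for each of the remaining pairs, so replicate 4 labelled p75NTR-/- stood with replicate 4 labelled WT and apart from the other libraries of its own label.

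Astrocytes take up glutamate released by neurons, turn it into glutamine and buffer water and ions around synapses and vessels. Stem cells of the subventricular zone are themselves related to astrocytes and share many of their markers, among them the filament protein GFAP and the glutamate transporter GLAST. In culture, FGF-2 and EGF keep NSPCs dividing, whereas BMP and LIF family signals, the latter acting through STAT3, drive astrocyte genes. In bulk RNA, fewer cells of a type and less RNA per cell cannot be told apart.

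The sequence in front of a gene's start carries part of its regulation, and 3 such windows are shown because their genes stand for the patterns described below. Gfap had the widest range over the libraries, Slc1a3 hardly varied, and S100b was high in a single library. The windows are from RefSeq, build GRCm38.p6, and run 5′ to 3′ on the strand of the gene, from 250 bases before the annotated start to 20 bases after it. Capitals mark matches on either strand to the STAT motif TTCNNNGAA, the short NFI motif TTGGC, the SOX motif CATTGT or the TATAAA box. The palindromic NFI site, which contains the short NFI motif on each strand, was searched too.
Gfap, chr11:102897181-102897450, minus strand: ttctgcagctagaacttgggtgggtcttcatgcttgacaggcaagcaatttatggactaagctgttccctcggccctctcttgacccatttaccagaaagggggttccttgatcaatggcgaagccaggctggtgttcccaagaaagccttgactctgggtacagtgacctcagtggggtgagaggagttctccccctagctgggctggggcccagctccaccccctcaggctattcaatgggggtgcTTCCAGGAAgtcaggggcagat
Slc1a3, chr15:8710788-8711057, minus strand: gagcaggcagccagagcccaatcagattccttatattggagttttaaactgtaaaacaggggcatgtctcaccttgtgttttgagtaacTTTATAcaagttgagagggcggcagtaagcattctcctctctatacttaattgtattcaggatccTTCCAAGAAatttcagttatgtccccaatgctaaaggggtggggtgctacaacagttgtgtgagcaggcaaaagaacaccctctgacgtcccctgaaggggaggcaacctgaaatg
S100b, chr10:76253586-76253855, plus strand: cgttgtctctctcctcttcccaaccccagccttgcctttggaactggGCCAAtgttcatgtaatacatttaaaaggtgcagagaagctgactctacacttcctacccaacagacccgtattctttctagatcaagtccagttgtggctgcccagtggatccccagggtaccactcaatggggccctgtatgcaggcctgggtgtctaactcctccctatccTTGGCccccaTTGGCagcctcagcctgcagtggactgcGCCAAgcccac
Of the 10 genes, 8 had such a window. Letters of the STAT type were found in the windows of Gfap (TTCCAGGAA, from position -2 before the start) and Slc1a3 (TTCCAAGAA, from position -96), which makes 2 of 8, where 8.30% of all 32851 windows of 300 bases hold them. The short NFI motif was found in 4 of 8 windows against 46.7% of all windows, and the S100b window held 4 matches. The palindromic NFI site and the SOX letters were found in 0 of 8 windows (0.0365% and 12.6% of all windows), and the TATA letters in 1 of 8 (13.6%). The annotated start in the Gfap window is that of Gfap-202 and lies 69 bases upstream of the start of Gfap-201, the main listed transcript. The annotated start in the Slc1a2 window lies 47779 bases downstream of the start of that gene's main listed transcript. It is the start of a listed transcript that held 1.76 to 4.16% of the gene's counts. The Slc1a2 window, which is among the 4 with the short NFI motif, thus does not lie in front of the main transcript. Such motif matches describe the letters of a window and do not show that a factor binds there.

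Levels were compared between genes per length only, in TPM (transcript abundance scaled to the library's total). Slc1a3 had the highest median over the 5 libraries, 519 TPM (range 351 to 560). It was followed by Sparcl1 with 506 TPM (413 to 1412), Gja1 with 388 TPM (191 to 705), Aldh1l1 with 368 TPM (276 to 418) and Glul with 337 TPM (207 to 367). Each of these genes overlapped in range with the next. Read within each library, however, Sparcl1 and Aldh1l1 each lay above Glul in every library. The order of the other neighbours among these genes changed between libraries. Aldoc followed with 250 TPM (167 to 450) and S100b with 138 TPM (118 to 483), again with overlapping ranges. Slc1a2 lay below all of these at 46.6 TPM (22.1 to 57.4), with no overlap with S100b. Aqp4 had 19.8 TPM (3.54 to 35.1) and Gfap 9.96 TPM (0.05 to 30.5). The ranges of Slc1a2, Aqp4 and Gfap overlapped, although Slc1a2 lay above Aqp4 and above Gfap in every library.

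**Figure D1:**
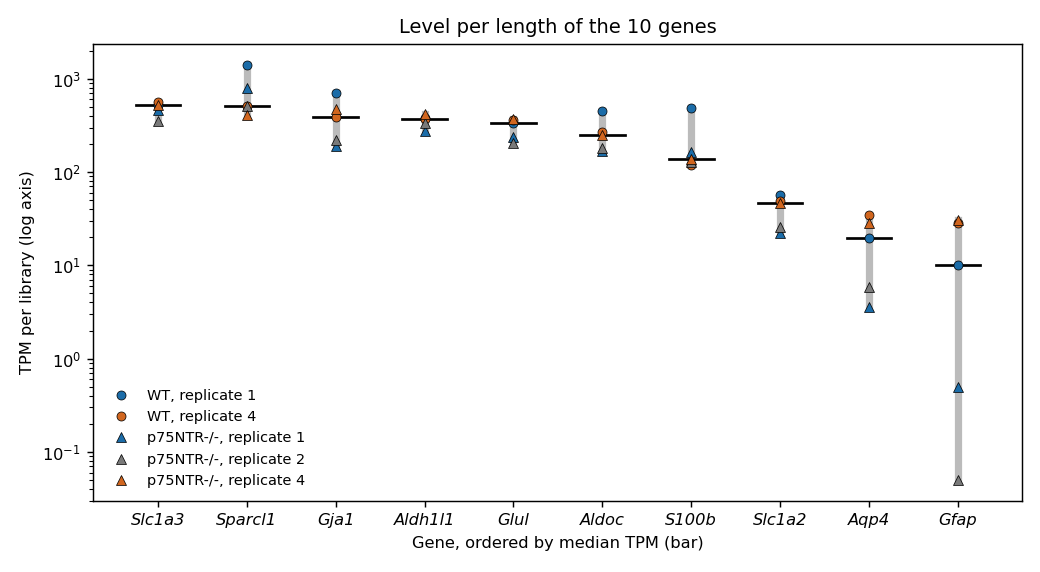
TPM of each gene in each of the 5 libraries on a log axis, ordered by the median (black bar), with a grey band from the lowest to the highest library. Circles are libraries labelled WT, triangles those labelled p75NTR-/-, and colours give the replicate number. Each of the upper genes overlaps with the next, Slc1a2 (22.1 to 57.4) lies below S100b (118 to 483), and Gfap spans 0.05 to 30.5 TPM.

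GFAP is the intermediate filament protein by which astrocytes are most often recognized. The gene sum of Gfap was 241 and 680.3 normalized counts in WT-labelled replicates 1 and 4, and 11.9, 1.20 and 746 in replicates 1, 2 and 4 labelled p75NTR-/-. Replicates 1 and 2 labelled p75NTR-/- held 12 counts and 1 count, whereas replicate 4 of the same label was the highest of all 5 libraries, so the labels overlapped. The exact Poisson 95% interval for these counts ran from 6.20 to 21.0 and from 0.0253 to 5.57 counts, and it covers counting error only.

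Within replicate number 1, Gfap in the library labelled p75NTR-/- stood at 4.92% of its WT partner, a 20.3-fold difference in normalized counts. Here and below, partner means only the library of the same replicate number, as the labels give no other pairing. Within number 4 the library labelled p75NTR-/- had 1.10 times the count of its WT partner. The log2 difference between the labels on the scale of log2(normalized count + 1) was -3.88 (standard error 2.52). It rests on the libraries near 0, as edgeR gave -0.86 and limma gave -6.25 without replicate 4 and -2.05 without replicate 2 labelled p75NTR-/-.

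Gfap has 2 listed transcripts, which differ in part of their exons. Gfap-201 (ENSMUST00000067444, chromosome 11 of GRCm38 from 102887336 to 102897131, 9 exons) codes for 430 residues and has 1472 exonic bases that the other lacks. Gfap-202 (ENSMUST00000077902, from 102890166 to 102897200, 8 exons) codes for 428 residues and has 1424 bases of its own. Gfap-202 made up 13.8% of the gene's counts in replicate 1 labelled WT (95% Wilson interval 10.1 to 18.7%). In replicate 4 labelled WT the share was 5.35% (3.87 to 7.35%), and in replicate 4 labelled p75NTR-/- it was 13.5% (11.1 to 16.2%). The libraries numbered 4 therefore had a like Gfap total but intervals of the Gfap-202 share that did not overlap, with 35 counts in one and 95 in the other. The intervals hold for the counting error of these libraries and not for the labels. They also leave out the error of assigning reads from shared exonic bases to a transcript. With 4 of 12 counts and 1 of 1 count, the share in replicates 1 and 2 labelled p75NTR-/- could not be placed at this depth.

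**Figure D2:**
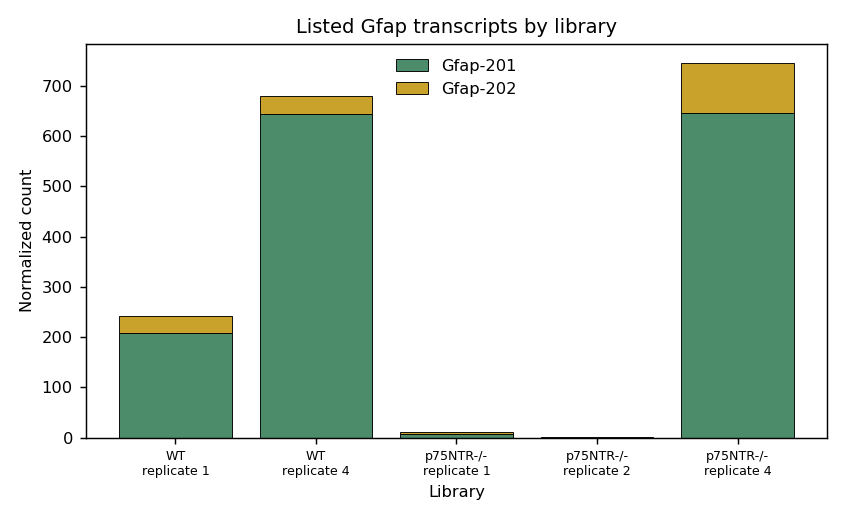
Normalized counts of the listed Gfap transcripts in each library, stacked to the gene sum. The sums are 241 and 680.3 in the WT-labelled libraries and 11.9, 1.20 and 746 in the p75NTR-/--labelled ones, and the Gfap-202 part is 100 of 746 in replicate 4 labelled p75NTR-/- against 36.4 of 680.3 in its WT partner.

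The glutamate transporters of astrocytes are GLAST, encoded by Slc1a3, and GLT-1, encoded by Slc1a2. GLAST is the transporter of radial glia and young astrocytes, and GLT-1 becomes the main one in the mature forebrain. The gene sum of Slc1a3 was 17930.1 and 18280.5 normalized counts in WT-labelled replicates 1 and 4, and 14544, 11597 and 17342 in replicates 1, 2 and 4 labelled p75NTR-/-. All libraries lay within a 1.58-fold range, and the 3 libraries labelled p75NTR-/- were below both labelled WT. The log2 difference was -0.34 (standard error 0.22), and -0.19 without replicate 2 labelled p75NTR-/-. Replicate 4 of that label stood at 94.9% of its WT partner. Its transcript Slc1a3-201 (ENSMUST00000005493, chromosome 15 from 8634124 to 8710764) carried 97.7 to 98.9% of the counts.

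For Slc1a2 the libraries gave 2136 and 1805 normalized counts in WT-labelled replicates 1 and 4, and 785, 955 and 1763 in replicates 1, 2 and 4 labelled p75NTR-/-. Replicates 1 and 2 labelled p75NTR-/- were low, and replicate 4 was at 97.7% of its WT partner, just under it, so that the labels narrowly did not overlap. The log2 difference was -0.84 (standard error 0.39). Of the 4 listed transcripts, Slc1a2-202 (ENSMUST00000080210, chromosome 2 from 102658659 to 102790784, 11595 exonic bases) carried 84.0 to 90.8% of the counts. The shorter Slc1a2-204 (ENSMUST00000111213) had 5.70 and 7.67% under the WT label and 10.7, 12.2 and 10.4% in replicates 1, 2 and 4 labelled p75NTR-/-. These shares did not overlap between the labels, but the Wilson intervals for their counting error did. The interval was 6.51 to 9.01% in replicate 4 labelled WT and 8.75 to 13.1% in replicate 1 labelled p75NTR-/-. In replicates 2 and 4 labelled p75NTR-/- it began at 10.1 and 9.05%, above both WT intervals. How often shares of other transcripts separate in this way was not tested. In addition, 0 exonic bases of Slc1a2-204 lie in no other annotated transcript.

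Among the listed members of the family, Slc1a3 held 83.9 to 88.0% of the summed TPM in every library. Slc1a2 held 9.14 and 7.34% in the WT-labelled replicates 1 and 4 and 4.21, 6.12 and 7.53% in the p75NTR-/--labelled replicates 1, 2 and 4. Slc1a4, a carrier of neutral amino acids, held 5.80 to 7.54%. Slc1a1, the transporter of neurons, held at most 0.65%, Slc1a5, a glutamine carrier, at most 1.48%, and Slc1a6 at most 0.38%. GLAST mRNA thus exceeded GLT-1 mRNA in all 5 libraries.

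Glutamine synthetase, encoded by Glul, turns the glutamate taken up by astrocytes into glutamine. Glul stood at 5932 and 6431 normalized counts in WT-labelled replicates 1 and 4, and 4197, 3464 and 6545 in replicates 1, 2 and 4 labelled p75NTR-/-. Replicates 1 and 2 labelled p75NTR-/- were the lowest libraries and replicate 4 the highest of all, so the labels overlapped. The log2 difference was -0.44 (standard error 0.31), and it was -0.24 without replicate 2 and -0.70 without replicate 4 labelled p75NTR-/-. Of the exonic bases counted for Glul, 93 also belong to the annotated Mir8114 on the same strand.

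Aquaporin 4 is the water channel of astrocyte endfeet. The gene sum of Aqp4, with a single listed transcript (ENSMUST00000079081), was 395 and 696 normalized counts in WT-labelled replicates 1 and 4, and 69.3, 114 and 566 in replicates 1, 2 and 4 labelled p75NTR-/-. Replicates 1 and 2 labelled p75NTR-/- lay below every other library, and replicate 4 lay between the libraries labelled WT. Within number 1 the Aqp4 level under the p75NTR-/- label was 17.5% of that under the WT label, and within number 4 it was 81.4%. The log2 difference of -1.66 (standard error 0.95) was -2.55 without replicate 4 and -1.04 without replicate 1 labelled p75NTR-/-.

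Connexin 43, encoded by Gja1, forms the gap junctions that couple astrocytes and radial glia. Gja1 reached 6380 and 4314 normalized counts in WT-labelled replicates 1 and 4, and 1734, 1937 and 4471 in replicates 1, 2 and 4 labelled p75NTR-/-. The low libraries were again replicates 1 and 2 labelled p75NTR-/-, while replicate 4 was above its WT partner. Within number 1 the Gja1 level was 3.68-fold lower under the p75NTR-/- label, and the log2 difference between the labels was -1.09 (standard error 0.48). Gja1-201 (ENSMUST00000068581, chromosome 10 from 56377330 to 56390415) carried 94.2 to 95.1% of the counts.

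Aldolase C and the folate enzyme ALDH1L1 are metabolic markers of astrocytes. Aldoc had gene sums of 9882 and 5914 normalized counts in WT-labelled replicates 1 and 4, and 3622, 3931 and 5541 in replicates 1, 2 and 4 labelled p75NTR-/-. The labels did not overlap, with replicate 4 labelled p75NTR-/- at 93.7% of its WT partner and replicate 1 labelled WT far above the rest. The log2 difference of Aldoc was -0.83 (standard error 0.32), and -0.46 without replicate 1 labelled WT. Aldh1l1 had 23093 and 22171 normalized counts in WT-labelled replicates 1 and 4, and 16444, 19687 and 25549 in replicates 1, 2 and 4 labelled p75NTR-/-. It varied least of the 10 genes, by 1.55-fold from the lowest to the highest library, and the log2 difference of -0.16 (standard error 0.24) was smaller than its error. Without replicate 1 or replicate 4 labelled p75NTR-/- it was -0.01 or -0.33.

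Sparcl1 encodes hevin, a matrix protein that astrocytes secrete, and S100b encodes a calcium-binding protein. Sparcl1 amounted to 53869 and 19959 normalized counts in WT-labelled replicates 1 and 4, and 29534, 18318 and 16148 in replicates 1, 2 and 4 labelled p75NTR-/-. Here replicate 1 labelled WT stood above all others and the labels overlapped. The gene sum of S100b, with 1 annotated transcript, was 1421 and 347 normalized counts in WT-labelled replicates 1 and 4, and 475, 369 and 409.9 in replicates 1, 2 and 4 labelled p75NTR-/-. Replicate 1 labelled WT was 4.09-fold above replicate 4 of the same label, and the remaining 4 libraries lay close together. The log2 differences between the labels, -0.67 (standard error 0.51) for Sparcl1 and -0.76 (standard error 0.61) for S100b, turned to 0.05 and 0.26 without replicate 1 labelled WT.

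**Figure D3:**
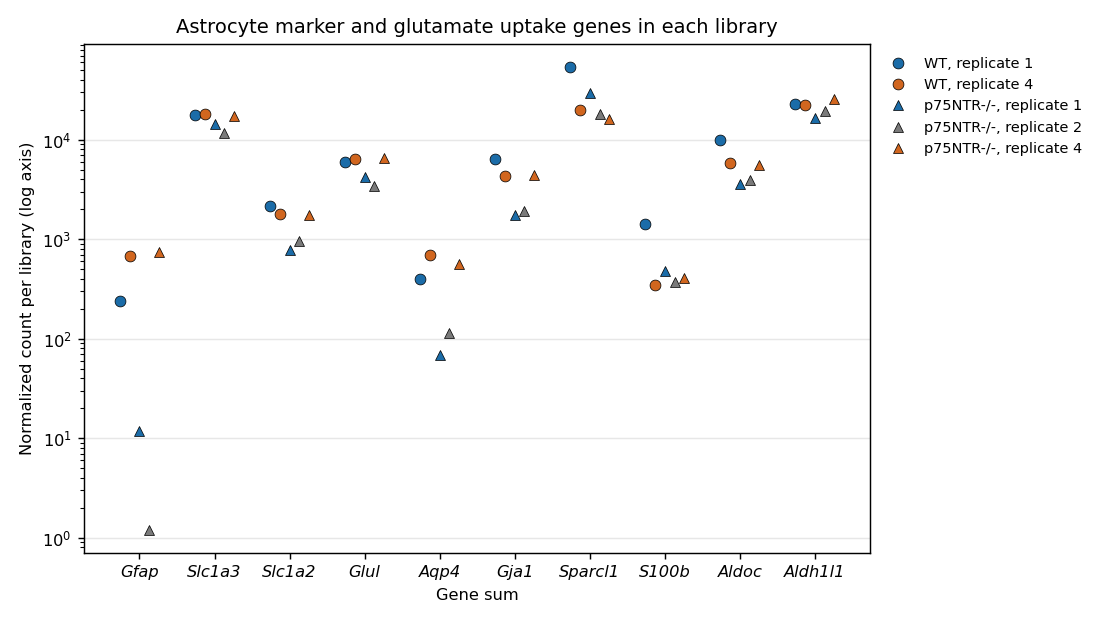
Normalized counts of the 10 gene sums in each library on a log axis. Circles are libraries labelled WT, triangles those labelled p75NTR-/-, and colours give the replicate number. For Gfap, Aqp4, Gja1 and Slc1a2 the p75NTR-/- replicates 1 and 2 lie below the other 3 libraries, and for S100b replicate 1 labelled WT, at 1421, lies above the other 4.

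In the comparison between the labels, all 10 gene sums had a lower fitted mean under the p75NTR-/- label, with a median log2 difference of -0.80 against 0.02 over all 10786 gene sums of mean 50 or more. A gene sum was called where its mean was at least 50, its fold change at least 1.5 and its Benjamini-Hochberg adjusted p under 0.05 in limma over all 12588 gene sums. By these criteria 0 of the 10 were called, where 0.00794% of all gene sums were, which is 1 gene (Gm15446). In limma 1 of the 10 (Aldoc) had an unadjusted p under 0.05, and the adjusted p was 0.93 for each of the 10. The unadjusted p depended on the tool. DESeq2 gave 0.043 for Slc1a2, 0.0062 for Aldoc, 0.025 for Gja1 and 0.039 for S100b, where 377 of 12585 gene sums were under 0.05. By edgeR only Aldoc was under 0.05, at 0.0225. On the counts, 0 of the 10 were called by edgeR (0% of all gene sums) and 0 by DESeq2 (0.0556%), which gave Gfap no p. Of the 19 transcripts, limma called 0 (0.0135% of all transcripts) and 0 had an unadjusted p under 0.05 in that fit, and by DESeq2 and edgeR 0.131% and 0% of all transcripts were called. Every p75NTR-/- library was below both WT libraries for 3 of the 10 genes (Slc1a3, Slc1a2 and Aldoc), where this held for 6.96% of all gene sums of mean 50 or more. Every p75NTR-/- library was above both WT libraries for 0 of the 10, against 7.76% of all. Since these values chose the genes, nothing is read from these counts.

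The difference between the labels was also read within each replicate number. Within number 1, all 10 genes were lower in the library labelled p75NTR-/-, with a median log2 difference of -1.45 against 0.03 over all gene sums of mean 50 or more. Of the 10 genes, 7 were lower by at least 1.5-fold, as were 13.8% of all gene sums. Within number 4, 5 genes were lower and 5 higher, the median was -0.00 for the 10 genes and for all gene sums, and 0 of the 10 reached 1.5-fold, where 0.751% of all gene sums were lower by that much. The differences of the 10 genes within number 4 stayed within 0.31 on the log2 scale. Each number holds a single library per label, so these values have no replicate check and the difference between the numbers was not tested.

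**Figure D4:**
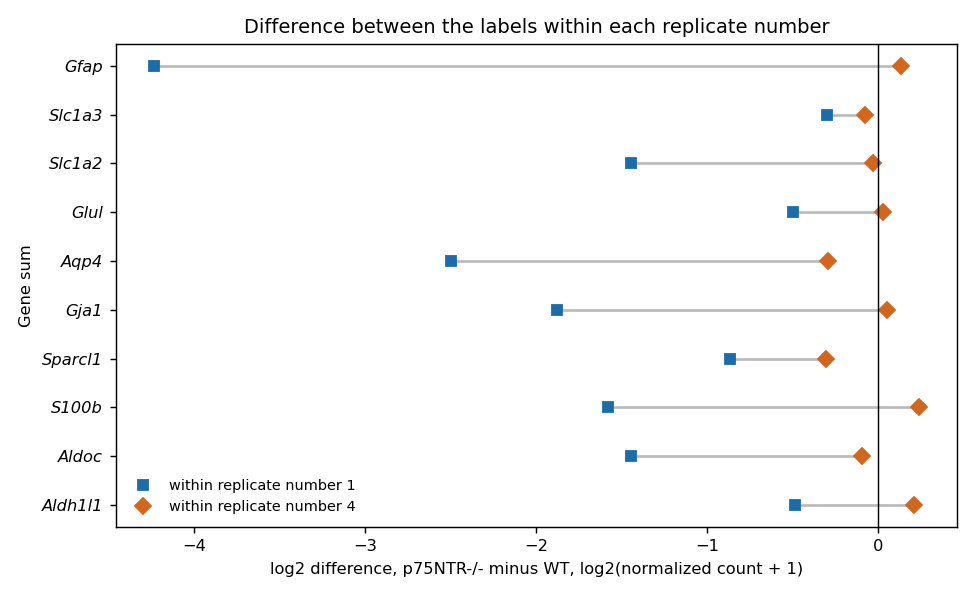
Log2 difference of each gene sum between the library labelled p75NTR-/- and the library labelled WT, on the scale of log2(normalized count + 1), within replicate number 1 (squares) and within number 4 (diamonds). All 10 squares lie left of 0, from -4.23 for Gfap to -0.30 for Slc1a3, and all diamonds lie within 0.31 of 0.

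Replicate 2 labelled p75NTR-/- has no WT partner of its number. Compared with the mean log2 level of both libraries labelled WT, all 10 genes were lower in it, by a median of -0.94 against 0.03 for all gene sums of mean 50 or more. Replicates 1 and 2 labelled p75NTR-/- were the lowest pair of libraries for 8 of the 10 genes, all except Sparcl1 and S100b, and for 19.4% of all gene sums of mean 50 or more. Replicate 1 labelled WT was the highest library for 5 of the 10 genes (Sparcl1, Slc1a2, Aldoc, Gja1 and S100b) and for 28.4% of all gene sums. Every p75NTR-/- library was below both WT libraries for 3 of the 10 genes and for 6.96% of all gene sums of mean 50 or more. Overlap between the labels is thus not particular to these genes.

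Other astrocyte markers were read from a list of 32 genes, of which 30 were listed and 28 had a mean of 50 or more. limma called 0 of the 28, and 2 had an unadjusted p under 0.05, as had 134 of all 10786 gene sums of mean 50 or more. All 28 had a lower fitted mean under the p75NTR-/- label, as had 47.4% of all gene sums of mean 50 or more. Their median log2 difference was -0.83, close to the -0.80 of the 10 genes. Of the listed markers under a mean of 50, Thbs4 was higher under that label (log2 difference 1.13) and Slc7a10 lower (-0.34). Thbs4, by which the paper followed newborn astrocytes, had only 3 to 11 counts per library. Within number 1, 27 of the 28 were lower with a median of -1.29, and within number 4, 14 were lower and 14 higher with a median of 0.01. Replicates 1 and 2 labelled p75NTR-/- were the lowest pair for 21 of these 28 genes.

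Apoe, the lipid carrier of astrocytes, had the highest mean of that list. Apoe had 55071 and 23581 normalized counts in WT-labelled replicates 1 and 4, and 4535, 7191 and 25453 in replicates 1, 2 and 4 labelled p75NTR-/-. The level in replicate 1 labelled p75NTR-/- was 12.1-fold below its WT partner, while the libraries numbered 4 differed little. Bcan, which encodes the matrix proteoglycan brevican, had 23472 and 12561 normalized counts under the WT label and 15695, 15036 and 13515 under the p75NTR-/- label. Pla2g7, an acetylhydrolase of platelet-activating factor, had 19136 and 12099 against 9561, 5697 and 10668. Acsbg1, an acyl-CoA synthetase, had 11355 and 15028 against 11965, 10382 and 14984, and differed the least of the 4 genes within number 1, by 0.08 on the log2 scale. The abundant markers of this list thus differed between the libraries by very unequal amounts.

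**Figure D5:**
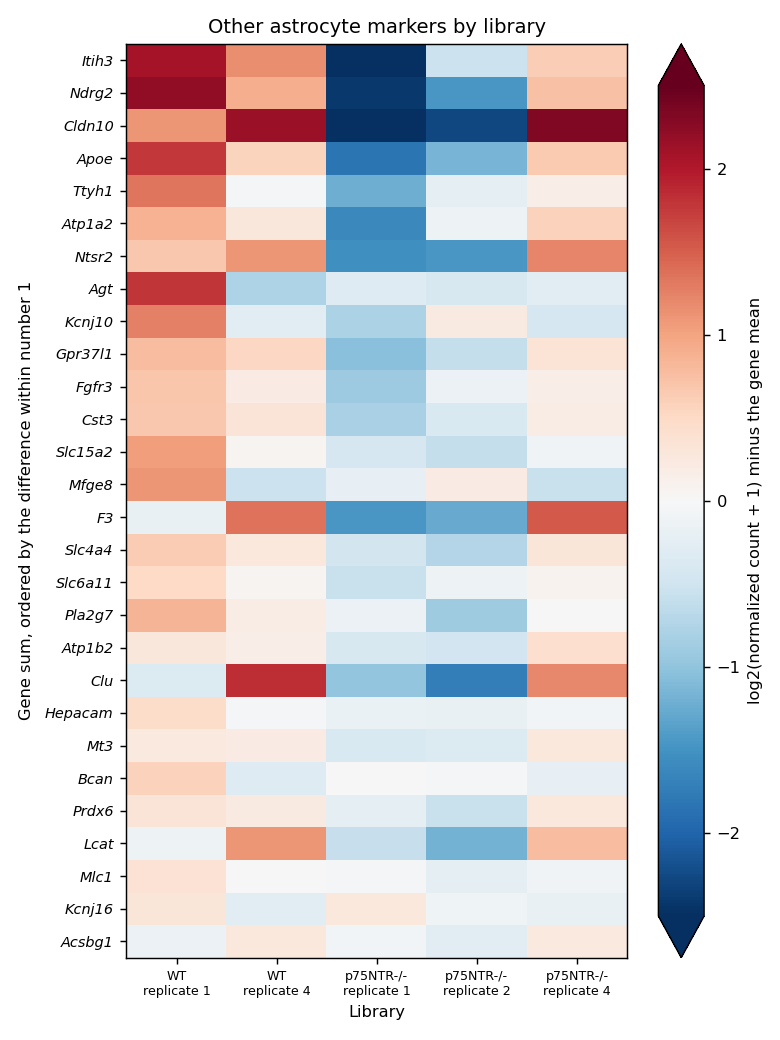
Heatmap of the 28 other astrocyte markers of mean 50 or more, as log2(normalized count + 1) minus the gene's mean over the 5 libraries, ordered by the difference within replicate number 1. Most rows are blue in replicates 1 and 2 labelled p75NTR-/- and red in replicate 1 labelled WT, and the libraries numbered 4 have like colours. Colours end at 2.5 in either direction.

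Further genes of glutamate and glutamine handling were read from a list. Of 21 genes, 19 were listed and 17 had a mean of 50 or more, of which limma called 0 and 1 had an unadjusted p under 0.05. The median log2 difference was -0.04, with 9 lower and 8 higher, and -0.19 within number 1 and -0.02 within number 4. Glud1, glutamate dehydrogenase, had 11842 and 8527 normalized counts in WT-labelled replicates 1 and 4, and 4905, 4932 and 8235 in replicates 1, 2 and 4 labelled p75NTR-/-, which is the order of libraries seen for Slc1a2. Slc25a18, a mitochondrial glutamate carrier, had 2980 and 2570 against 2411, 2219 and 2397. Got2, the mitochondrial aspartate aminotransferase, had 2668 and 3134 against 2974, 2839 and 3107. Asns, asparagine synthetase, was low in a single library, with 755 and 3107 under the WT label against 2175, 2118 and 2859.

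Further genes of intermediate filaments were read from a list of 4. Nes, encoding the progenitor filament nestin, had 8704 and 13101 normalized counts in WT-labelled replicates 1 and 4, and 23123, 17844 and 13413 in replicates 1, 2 and 4 labelled p75NTR-/-. The libraries with the least Gfap were thus those with the most Nes. Vim, encoding vimentin, had 20556 and 40938 against 23981, 23753 and 44562, and was high in both libraries numbered 4. Plec, a linker of filaments, had 155 and 204 against 51.5, 78.1 and 210.2, and Synm had 35.3 and 48.9 against 30.7, 32.4 and 58.1. For Plec, replicates 1 and 2 labelled p75NTR-/- were the lowest libraries and replicate 4 the highest, as for Gfap. Synm, at a mean of 41.1 and thus under 50, had 31 and 27 counts in replicates 1 and 2 labelled p75NTR-/-. With 36 counts in replicate 1 labelled WT, its lowest libraries could not be told apart at this depth. Of the 3 filament genes of mean 50 or more, limma called 0, and 0 had an unadjusted p under 0.05, which also held for the connexin, reactive, regulator, progenitor and proliferation lists.

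Of 9 other connexin genes, 4 were listed and 3 had a mean of 50 or more, and 0 were called. Gjc3 had 1611 and 291 normalized counts in WT-labelled replicates 1 and 4, and 268, 459 and 208 in replicates 1, 2 and 4 labelled p75NTR-/-. Gjc1 had 88.3 and 159 against 187, 210.2 and 163, the reverse of Gja1 in replicates 1 and 2. Gjd2 had 184 and 16.6 against 50.5, 58.9 and 16.9. Within number 1, Gjc3 was 6.01-fold and Gjd2 3.64-fold lower under the p75NTR-/- label, and the median log2 difference of the 3 genes was -1.84, against 0.02 within number 4. The p75NTR-/- replicates 1 and 2 were the lowest pair for 0 of the 3, and a difference from Gja1 was not tested.

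Genes of reactive astrocytes were read from a list of 12, of which 10 were listed and 6 had a mean of 50 or more, and 0 were called. Serpina3n, a protease inhibitor, had 46.1 and 694 normalized counts in WT-labelled replicates 1 and 4, and 32.7, 20.4 and 369 in replicates 1, 2 and 4 labelled p75NTR-/-. Cd44, a hyaluronan receptor, had 501 and 1257 against 737, 662 and 1649. Cp, ceruloplasmin, had 1770.4 and 2675 against 3652, 2576 and 2788. Serpina3n, Cd44 and Vim were higher in the libraries numbered 4 than in the other 3, as Gfap was.

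Among 30 regulators of astrocyte formation, 29 were listed and 27 had a mean of 50 or more, and 0 were called. The median log2 difference was -0.25, with 21 lower and 6 higher, and -0.57 within number 1 and 0.05 within number 4. Notch1 had 4831 and 2573 normalized counts in WT-labelled replicates 1 and 4, and 1971, 3275 and 2952 in replicates 1, 2 and 4 labelled p75NTR-/-. Dnmt1, the maintenance DNA methyltransferase, had 1431 and 2515 against 3139, 3652 and 2515. Ncor1, which encodes a corepressor, had 4356 and 3257 against 3494, 3610.1 and 3225.

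By the root mean square difference of centred log2 levels over the 5 libraries, 10776 other genes of mean 50 or more were compared with the 3 members of widest range. The genes closest to Gfap were Met, Cldn10, Luzp2, Slc22a4 and Osmr, at 1.35 to 1.87, so none matched it closely. Osmr, a receptor subunit for oncostatin M, had 1.96 and 183 normalized counts in WT-labelled replicates 1 and 4, and 0.99, 0 and 232 in replicates 1, 2 and 4 labelled p75NTR-/-. The genes closest to Aqp4 were Ndrg1, Dbp, Psd2, Txnip and Ntsr2, at 0.17 to 0.25, and Ndrg1 had 126 and 283 against 24.7, 50.5 and 238. Those closest to S100b were Csmd1, Pcdhga9, 4930402H24Rik, Dlgap1 and Agt, at 0.08 to 0.20, and Agt had 8088 and 1366 against 1875, 1771 and 1914. These matches are a description over 5 libraries.

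Markers of other cells and of the cell cycle were read beside these genes. Progenitor markers were present in every library (12 of 12 listed), and Fabp7, encoding a radial glia fatty acid carrier, had 35613 to 39744 normalized counts, and Egfr 5457 to 9641. Of the 11 progenitor markers of mean 50 or more, 8 were lower within number 1 with a median log2 difference of -0.56, and the median within number 4 was 0.12. Nes and Vim, given above, belong to this list too. Of 10 proliferation markers, all had a higher fitted mean under the p75NTR-/- label, with a median log2 difference of 0.53, and 0 were called. The summed proliferation markers were 19240.2 and 28269 normalized counts in WT-labelled replicates 1 and 4, and 36357, 38342 and 27193 in replicates 1, 2 and 4 labelled p75NTR-/-. The libraries in which Gfap, Aqp4 and Slc1a2 were low were those with the highest proliferation sums, and the part of this in the astrocyte gene levels was not tested. Pcna, for one, had 2500.5 and 4510 against 6050, 5921 and 4287.

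Of neuron markers, 5 of 12 were listed, with a sum between 7261 and 10164 normalized counts that was mostly Map2, and Tubb3 had at most 274 and Snap25 at most 81.7. Gad1, which encodes a glutamate decarboxylase of inhibitory neurons, had 665 and 1404 under the WT label against 293, 406 and 1483 in replicates 1, 2 and 4 labelled p75NTR-/-. Gad1 was thus lowest in replicates 1 and 2 and highest in replicate 4 labelled p75NTR-/-, as was Gfap. Of oligodendrocyte lineage markers, 6 of 10 were listed, with a sum of 8576 and 4461 in replicates 1 and 4 labelled WT and 5218, 7690 and 4705 in replicates 1, 2 and 4 labelled p75NTR-/-. Of microglia and blood cell markers 1 of 10 was listed (Cd68, 37.6 to 227), and of vascular and fibroblast markers 3 of 11, with a sum between 123 and 323. Of ependymal markers 5 of 6 were listed, and Foxj1 had 300 to 415 normalized counts. The sum of the ependymal list, 746 to 1915, includes S100b itself. The part of these cells in the levels of the 10 genes was not tested.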

How the data were processed

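RNA of 5 NSPC cultures (500 ng each) was made into libraries with a stranded mRNA kit. Per the labels and the paper, the authors used Salmon 0.10.2 on Ensembl's GRCm38.p6 transcripts, then normalized with DESeq2 1.22.0. The deposited signal is a transcript's count after division by a size factor, with 0.5 added. The authors' TPM columns hold a deposited score per length. They were used for levels between genes, for shares within the Slc1a family and as an alternative setting in limma. The authors' own comparison (baseMean score, log2 fold change, p-value and adjusted p-value) was deposited too and not used.

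Of 22530 lines, 303 repeats of a transcript were dropped, leaving 22227. After 0.5 was subtracted, 100% of the values in each library were whole multiples of one step (within 0.02 steps), which gave the counts back. limma 3.58.1 was run on log2(normalized count + 1) over all gene sums and all transcripts with no covariate, and edgeR 4.0.16 and DESeq2 1.42.0 on the counts, in R 4.3.3. The procedure was also run on simulated counts in which no library stood apart from the others of its group. That simulation therefore does not show how the procedure performs on these libraries. Coordinates are from GENCODE M21 (GRCm38), and 8 of 10 genes matched a RefSeq promoter window by symbol. A transcript was named where it held at least 10% of its gene's counts in a library, and from each further list the 4 genes of highest mean, of which some are not reported here. Genes close to a member were named by the likeness rule (the 5 closest to each of the 3 members of widest range). The members and lists were chosen with earlier results of these data known. The paper describes 4 replicates from independent preparations, whereas these libraries are 2 labelled WT and 3 labelled p75NTR-/-.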

Additional observations from a re-analysis of the deposited data

How the results depend on the processing

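The alternatives were a pseudocount of 0.5 or 5, a minimum mean of 10 to enter the fit, no minimum mean for a call, TMM factors, TPM, DESeq2, edgeR, a replicate block and leaving out each library. Of 150 log2 differences of the 10 genes under these settings and with the highest transcript in place of the gene sum, 0 were called. Of these, 146 moved by less than the spread between libraries. That spread is each gene's own residual standard deviation in limma, so a gene of wide spread can move far and still count here. Some of the 146 could not move. The minimum mean settings leave a log2 difference as it is, and so does the highest transcript for genes with a single listed transcript. The replicate block gave the same log2 differences as leaving out replicate 2 labelled p75NTR-/-. The 146 are thus no measure of stability. Gfap, at -3.88 in the main fit, counted among the 146 with -0.86 by edgeR and -6.25 without replicate 4 labelled p75NTR-/-. The 4 that moved by more than their spread belong to Sparcl1 and S100b. Without replicate 1 labelled WT they were 0.05 and 0.26, both with the sign turned, and without replicate 4 labelled WT -1.39 and -1.77. In place of 1 gene sum, limma called 0 with TPM and 0 with the replicate block, edgeR 0 and DESeq2 7, and 0 to 1 were called when a library was left out (0 without replicate 1 labelled WT or replicate 2 labelled p75NTR-/-). In place of 3 transcripts, limma called 0 with a pseudocount of 5, 0 with TPM and 0 with the replicate block, 31 without a minimum mean, edgeR called 0, DESeq2 28, and 0 were called with any library left out. The cause of these shifts was not tested. At an unadjusted p under 0.05, limma had 262 gene sums and 699 transcripts, DESeq2 377 and 896, and edgeR 260 and 534.

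With the replicate number as a block, replicate 2 labelled p75NTR-/- drops out of the difference, and limma's log2 difference was -2.05 for Gfap, -1.40 for Aqp4 and -0.91 for Gja1, with 0 of 10 called. Deviations from the label means correlated at r = 0.26 for number 1 and 0.48 for number 4 over 10786 genes. With 2 libraries labelled WT, their deviations are mirror images, so these values cannot show that same-numbered libraries belong together. Before centring, replicate 1 labelled p75NTR-/- correlated at 0.931 with replicate 1 and 0.939 with replicate 4 labelled WT. With 2 pairs and no litter or day in the labels, the libraries share only a number. Depth limits Gfap most, with 12 counts and 1 count in 2 libraries.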
